A study of Mus musculus with 19 samples.

Results

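Quiescent NIH3T3 cells that received fibroblast growth factor (FGF) for 4 h while MEK was blocked by U0126 were compared with quiescent cells that received neither. NIH3T3 is an established mouse fibroblast line. Members were chosen by label alone: 2 arrays of FGF 4 h with U0126 (experiments 1 and 2) and 3 quiescent arrays (replicates 1a and 1b of experiment 1, averaged first, and replicate 2 of experiment 2), so 5 of the 19 arrays of the series. All cells had spent 48 h in 0.1% serum. The treated cells received basic FGF at 50 ng/ml for 4 h, with U0126 at 20 µM added 0.5 h earlier; cells given FGF at the same dose for 4 h without U0126 (2 arrays, experiments 1 and 2) served as the reference for what U0126 changed. The comparison addresses which early responses to FGF do not need MEK activity. No arrays of U0126 alone, of its solvent, or of cells kept for 4 h without FGF were analysed here. The effects of FGF, of U0126 itself and of the added time therefore cannot be told apart in the difference from quiescence. The labels do not say whether replicates were separate cultures, so p-values measure only the spread between these samples, which may be technical.

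FGF binds receptor tyrosine kinases that signal through the RAS-RAF-MEK-ERK cascade, through PI3K and AKT, and through phospholipase C and calcium. ERK phosphorylates transcription factors of the immediate-early class and drives feedback genes such as the dual-specificity phosphatases, whereas AKT excludes FOXO factors from the nucleus and supports growth through mTOR. U0126 binds MEK1 and MEK2 and keeps them from activating ERK. The integrated stress response is a separate route in which the factor ATF4 raises genes of amino acid supply, with Ddit3 and Atf3 among its targets.

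The median signal of the 5 arrays lay between 67.8 and 77.9, against 60.2 to 88.3 over all 19, and Gapdh 3'/5' ratios over all arrays were 0.698 to 0.8. The 2 arrays of FGF 4 h with U0126 correlated across probe sets with r = 0.9701, and the pair of quiescent arrays of experiment 1 reached r = 0.9731; probe sets are not independent replicates. Of 14 fibroblast markers tested, 4 fell (Pdgfra, Pdgfrb, Col1a1 and Dcn; the last pair without a call when the block was left out, adjusted p = 0.48 and 0.16; 2 markers in all fell without quiescent replicate 1b or replicate 2 of FGF with U0126) and none rose, and the summed signal of the list was 224306 to 240398 on quiescent arrays and 202839 to 217634 with FGF and U0126. The other 10 fibroblast markers did not pass. None of the tested markers of macrophages (7 tested), epithelium (9), endothelium (6), muscle (7) or adipocytes (4) passed. Summed signals of those lists stayed between 1181 and 1433, 2560 and 3868, 174 and 316, 493 and 787, and 15073 and 18969; quiescent and treated ranges overlapped in each list.

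Across 14996 genes, 950 rose (6.34% of those tested) and 1304 fell (8.70%), together 2254 (15%), in limma's moderated test with the experiment as a block and a Benjamini-Hochberg adjusted p of 0.05 as the limit. The called genes moved in the same direction in both experiments. Most changes were small: 176 rises and 288 falls exceeded 2-fold, and 26 rises and 18 falls exceeded 4-fold. The median log2 change was 0.65 among the risen and -0.69 among the fallen genes, against -0.03 over all genes. Signals of the 5 arrays did not overlap between the groups for 5317 genes (35.5% of those tested). Among them were 884 of the 950 risen and 1212 of the 1304 fallen genes, which were called from these same arrays. The count of calls depended on pairing and on single arrays. Without the replicate block 1108 genes were called, all of them within the 2254 and in the same direction. Leaving out quiescent replicate 2 gave 1153 calls (584 up and 569 down), leaving out replicate 1 of FGF with U0126 gave 1496, and leaving out its replicate 2 gave 1276.

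**Figure D1:**
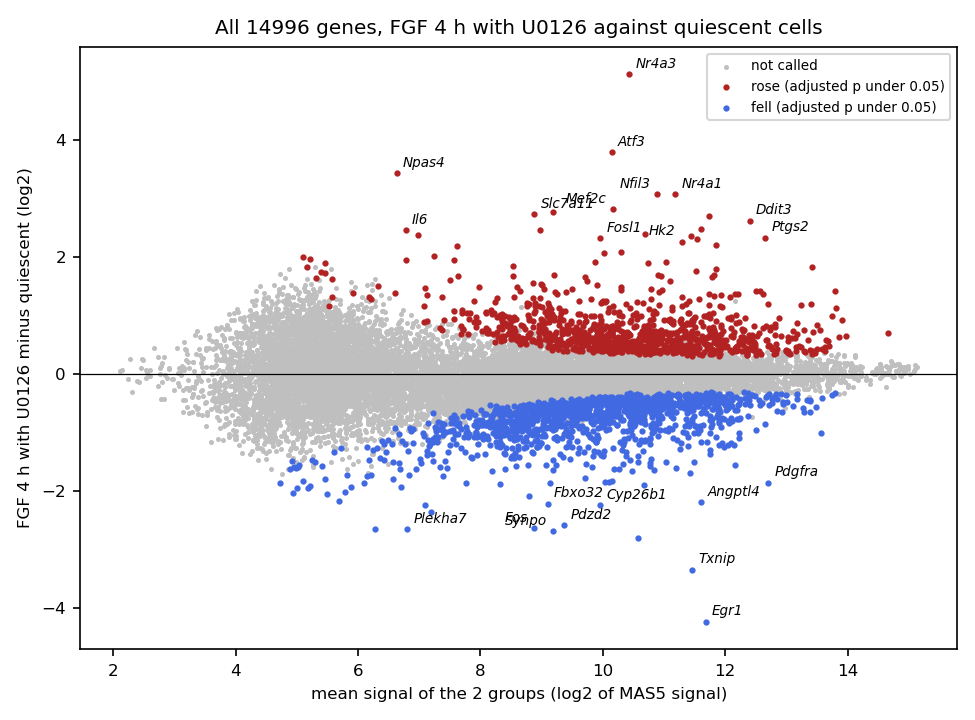
Log2 difference between FGF 4 h with U0126 and quiescent cells (vertical axis) against the mean signal of both groups (horizontal axis, log2), 1 point for each of 14996 genes. Red points are the 950 genes that rose and blue points the 1304 that fell; Nr4a3 and Atf3 stand highest and Egr1 and Txnip lowest.

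Transcription factors of the immediate-early class split into strong rises and strong falls. Signals are given in the order quiescent 1a, 1b and 2, then experiments 1 and 2. Nr4a3, an orphan nuclear receptor, read 135, 10.4 and 81.8 in quiescent cells and 2096 and 3266 with FGF and U0126. This is a log2 difference of 5.12 ± 0.46 (SE; adjusted p = 5.9e-07), the largest rise of any gene that the naming rule covers, and the quiescent arrays themselves spread widely. Fold changes here are on the log2(signal + 13.6) scale, which understates changes of low genes. Nr4a1, the best known member of the same family, read 271, 428 and 658 against 3638 and 4629.7 (log2 3.08 ± 0.22, adjusted p = 4.8e-08). The third member, Nr4a2, rose by 2.47 ± 0.18 from 186, 122 and 132 to 1063 and 668. For all 3 family members both treated arrays lay above every quiescent array.

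Atf3, a bZIP factor induced by many stresses, was flat across quiescent arrays at 139, 139.8 and 139 and read 2499.7 and 1767 with FGF and U0126 (log2 3.79 ± 0.21, adjusted p = 2.7e-09). FGF without U0126 gave 99.3 and 122, below the quiescent level. The test of the treated groups against each other gave a log2 difference of 4.10 (adjusted p = 6.9e-10). Nfil3, a bZIP repressor known from the clock and from cytokine control, went from 349, 359 and 422 to 3949 and 2877 (log2 3.08 ± 0.20), and FGF alone gave 642 and 399. Mef2c, a MADS-box factor of muscle and neurons, read 318, 394 and 209 and then 2149 and 1866 (log2 2.82 ± 0.20), whereas FGF without U0126 gave 222 and 132. Mef2c, like Atf3, therefore stood high only on the arrays with U0126 among these 3 groups, and its log2 difference from FGF alone was 3.45 (adjusted p = 3.3e-09). Npas4, an activity-regulated factor of neurons, was near the bottom of the scale in quiescent cells (15.5, 3.9 and 2.4) and read 202 and 182 after treatment.

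Egr1, the zinc finger factor that is a standard ERK-driven immediate-early gene, moved the other way. Its signal was 2889, 6135 and 8039 in quiescent cells, already high and uneven between arrays, and 344 and 254 with FGF and U0126 (log2 -4.24 ± 0.21, adjusted p = 1.3e-09). FGF alone for 4 h left 3059 and 4648, so that the treated groups differed by -3.61 on the log2 scale (adjusted p = 3.3e-09). Egr2 fell by 2.09 ± 0.31 from 320, 837 and 889 to 162 and 138. Egr3 fell by 1.56 ± 0.17 with U0126 and was 1.28 above quiescence on the log2 scale without it. Fos, the partner of JUN proteins in AP-1, read 204, 565 and 1298 and then 95.3 and 96.2 (log2 -2.64 ± 0.36), and FGF alone gave 144 and 170.2. The Fos difference between the treated groups did not pass (log2 -0.64, adjusted p = 0.3). Of 28 immediate-early genes tested, 10 rose, 8 fell and 10 did not pass, where 6.34% of all genes rose and 8.70% fell. Rises and falls balanced in the list median, which was -0.01 against -0.03 over all genes. The members also included Myc, which rose by 0.77 ± 0.13, and Fosl1, described with the ERK targets. Junb fell by 0.78 ± 0.18 (adjusted p = 0.0064), a call that was lost without the block (adjusted p = 0.065) and without quiescent replicate 1b (0.09), quiescent replicate 2 (0.2) or replicate 2 of FGF with U0126 (0.063).

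**Figure D2:**
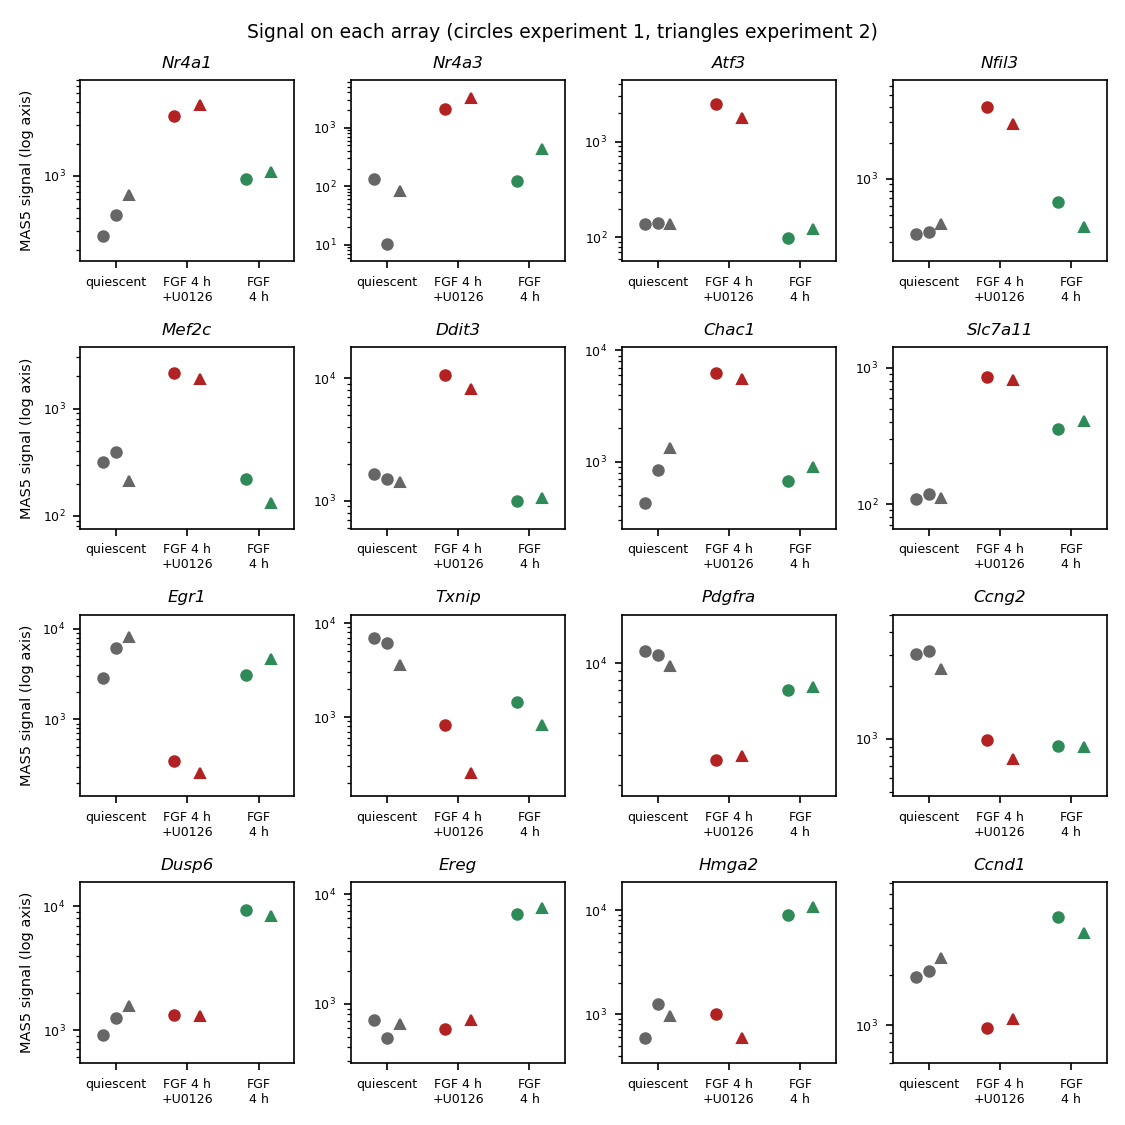
MAS5 signal on each array (log axis) for 16 genes in quiescent cells (grey), FGF 4 h with U0126 (red) and FGF 4 h (green); circles are experiment 1 and triangles experiment 2. Atf3 reads 139 to 140 on quiescent arrays and 1767 to 2500 with FGF and U0126, and Dusp6, Ereg and Hmga2 are highest with FGF alone.

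Genes of amino acid supply and the integrated stress response formed the most complete rise among the gene lists examined. Of 32 list members tested, 27 rose, none fell and 5 did not pass, against 6.34% of all genes that rose. The list median was 0.98 on the log2 scale. With FGF alone the median was 0.04, with 6 members up and 7 down, and 26 of the 32 were higher with U0126 than without it in the direct test, where 6.94% of all genes were higher. Without the block 23 members rose. Slc7a11, the cystine importer, read 109.7, 118 and 112 in quiescent cells and 849.9 and 809 after treatment (log2 2.74 ± 0.22). It was also up with FGF alone, at 357 and 404, and higher with U0126 by 1.10 (adjusted p = 0.002).

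Chac1, which degrades glutathione, went from 430, 844 and 1324 to 6222 and 5532 (log2 2.69 ± 0.19, adjusted p = 5.6e-08), and the level with FGF alone was 668 and 901. Ddit3, which encodes the stress factor CHOP, read 1646, 1499 and 1412 and then 10538 and 8114 (log2 2.62 ± 0.17). FGF alone left Ddit3 at 1000 and 1047, below every quiescent array. Trib3, a pseudokinase that binds AKT and ATF4, rose by 2.36 ± 0.20 with U0126 and was -0.79 relative to quiescence without it. The treated groups differed by 3.16 for Ddit3 (adjusted p = 6.9e-10) and by 3.15 for Trib3 (adjusted p = 9.4e-09).

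Enzymes and carriers moved with these regulators. Cth, which makes cysteine, rose by 2.40 ± 0.16 from 438, 343 and 672 to 2427 and 3112. The mitochondrial folate enzyme Mthfd2 rose by 2.31 ± 0.18, the serine phosphatase Psph by 1.77 ± 0.16 and the serine hydroxymethyltransferase Shmt2 by 1.43 ± 0.14. Asns, asparagine synthetase, rose by 1.18 ± 0.13 from 4916, 5422 and 6753 to 14556 and 12308. Its level with FGF alone was 6405 and 7775. The amino acid carriers Slc7a5, Slc3a2 and Slc7a1 rose by 1.36, 1.19 and 1.43, and the tRNA synthetase gene Aars by 1.20. Atf4 itself rose by 0.99 ± 0.11, from 7347, 9934 and 9791 to 17556 and 18809.8. Members that did not pass included Cebpb at 0.05 and Atf5 at -0.28 (adjusted p = 0.88 and 0.14).

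The promoters of Chac1, Slc7a11, Atf3 and Herpud1, printed here, carry the letters TGATGCAA, a form of the C/EBP-ATF element through which ATF4 acts. The sequences show where the letters lie in genes that moved together; each runs from 250 bases before to 50 bases after the RefSeq start (GRCm38.p6), 5′ to 3′ in the direction of transcription. Capitals mark the element on either strand. The Chac1 promoter (chr2:119350992-119351291, plus strand) has it 193 bases before the start. Slc7a11 (chr3:50443564-50443863, minus strand) has 2 matches, the first 66 and the last 47 bases before the start. Atf3 (chr1:191183284-191183583, minus strand) has it 110 bases before the start, and Herpud1 (chr8:94386179-94386478, plus strand) 112 bases before.
Chac1: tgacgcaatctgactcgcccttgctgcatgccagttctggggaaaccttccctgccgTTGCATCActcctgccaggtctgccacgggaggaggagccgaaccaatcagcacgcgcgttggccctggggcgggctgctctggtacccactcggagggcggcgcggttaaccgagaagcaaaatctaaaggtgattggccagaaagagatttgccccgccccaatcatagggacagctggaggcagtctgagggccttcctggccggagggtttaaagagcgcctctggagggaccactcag
Slc7a11: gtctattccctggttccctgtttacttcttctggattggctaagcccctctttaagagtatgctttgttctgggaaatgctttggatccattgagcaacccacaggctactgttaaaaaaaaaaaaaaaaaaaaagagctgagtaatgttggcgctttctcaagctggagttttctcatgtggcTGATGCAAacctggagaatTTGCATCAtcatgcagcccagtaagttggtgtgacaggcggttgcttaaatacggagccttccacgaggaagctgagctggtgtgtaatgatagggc
Atf3: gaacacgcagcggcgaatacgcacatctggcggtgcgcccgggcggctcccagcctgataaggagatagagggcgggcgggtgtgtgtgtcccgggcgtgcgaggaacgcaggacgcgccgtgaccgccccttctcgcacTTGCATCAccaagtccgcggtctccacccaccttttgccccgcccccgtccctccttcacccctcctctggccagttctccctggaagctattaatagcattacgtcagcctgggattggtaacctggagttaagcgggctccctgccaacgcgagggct
Herpud1: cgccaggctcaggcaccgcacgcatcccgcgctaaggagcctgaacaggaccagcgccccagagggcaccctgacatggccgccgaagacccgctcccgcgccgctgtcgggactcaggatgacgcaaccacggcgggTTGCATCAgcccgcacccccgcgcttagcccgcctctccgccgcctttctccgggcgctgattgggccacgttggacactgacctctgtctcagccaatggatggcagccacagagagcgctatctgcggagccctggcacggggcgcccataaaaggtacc

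In promoters of this length the letters occurred in 294 of 32851 (0.895%) of all RefSeq promoters in the table and in 6 of 29 promoters (20.69%) of 25 genes of the amino acid supply list: Aars, Chac1, Nupr1, Slc1a4, Slc7a11 and Vldlr. Atf3 and Herpud1 are not members of that list, and their promoters were chosen after the values were seen. A match is only these letters in this window.

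Part of the unfolded protein response list rose as well. Of 21 list members tested for heat shock and the unfolded protein response, 10 rose and 1 fell (median 0.36). The shares over all genes were 6.34% for rises and 8.70% for falls. Herpud1, an endoplasmic reticulum membrane protein of protein degradation, read 4476, 5757 and 4553 and then 18139.5 and 16121 (log2 1.83 ± 0.12, adjusted p = 1.6e-08). Sdf2l1, Dnajb9 and Creld2, chaperone-type proteins of the endoplasmic reticulum, rose by 1.80, 1.65 and 1.37, and each was also higher with U0126 than with FGF alone (log2 1.08, 1.06 and 0.76). Hspa5, the main chaperone of the endoplasmic reticulum, rose by 0.70 ± 0.14 (adjusted p = 0.0017), a call lost when quiescent replicate 2 was left out (adjusted p = 0.06). Among the cytosolic heat shock genes of the list, Hspa8 was at -0.03, Hsph1 at -0.01, Hsp90aa1 at 0.19 and Dnaja1 at -0.29, none of which passed (adjusted p = 0.93, 0.98, 0.39 and 0.2), and Hspa1b fell by 0.58 (adjusted p = 0.0058), a call lost without the block (adjusted p = 0.11) or without replicate 2 of FGF with U0126 (0.097). The ER stress element of the unfolded protein response is a CCAAT box and a CCACG box at fixed spacing, a motif added after the data were seen. It was in 39 of 32851 promoters (0.119%) and in 5 of 23 promoters of the list (21.739%). The 5 were those of Calr, Creld2, Hsp90b1, Hspa5 and Pdia6. Hsp90b1 and Pdia6 did not pass (adjusted p = 0.33 and 0.06), and Herpud1, Sdf2l1 and Dnajb9 were not among the matches. In the Creld2 promoter (chr15:88819396-88819695, plus strand) capitals show the element with the bases between its boxes.
Creld2: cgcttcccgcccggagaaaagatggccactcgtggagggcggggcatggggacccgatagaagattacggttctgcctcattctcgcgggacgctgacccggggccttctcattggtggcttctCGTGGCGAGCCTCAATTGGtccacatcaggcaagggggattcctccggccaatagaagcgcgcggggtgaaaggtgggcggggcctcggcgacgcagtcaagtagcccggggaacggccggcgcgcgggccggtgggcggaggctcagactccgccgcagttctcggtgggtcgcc

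Genes that build ribosomes also rose, where 6.34% of all genes rose. Their median rise was smaller with U0126 than with FGF alone, although most did not differ beyond the limit between the treated groups. Of 35 list members, 29 rose and none fell, with a median of 0.61 on the log2 scale; with FGF alone 32 rose, where 7.13% of all genes did, and the median was 0.93. In the direct test 10 of the 35 were lower with U0126, none was higher, and 25 did not pass, against 6.03% of all genes lower. Rrp12, a factor of ribosome export, read 262, 256 and 249 and then 587 and 635 (log2 1.22 ± 0.16), and 658 and 696 with FGF alone. Nop56, a core protein of box C/D small nucleolar particles, rose from 2413, 2317 and 2107 to 4257 and 4641 (log2 0.99 ± 0.16), and Nop58 of the same particle by 0.91. Gnl3, nucleostemin, rose by 0.88 ± 0.14. The count was sensitive: 19 members rose without the block, 18 when replicate 2 of FGF with U0126 was left out, and 16 without the variance trend.

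Genes of polyamine and nucleotide synthesis rose in part, where 6.34% of all genes rose. Of 14 such genes tested, 8 rose and none fell (median 0.47; 5 rose without the block and 4 without replicate 2 of FGF with U0126). Srm, spermidine synthase, went from 2131, 2629.7 and 2543 to 5905 and 5041 (log2 1.15 ± 0.11) and was 6295 and 6042 with FGF alone. Odc1, the rate-limiting enzyme of polyamine synthesis, read 1903, 2006 and 1728 and then 3381 and 2986 (log2 0.79 ± 0.10). Ctps and Nme1 of nucleotide synthesis rose by 0.67 and 0.60. Myc read 1764, 2705 and 2819 in quiescent cells, 4658 and 3859 with FGF and U0126 and 4669.8 and 5446 with FGF alone. The treated groups differed by -0.25 for Myc, -0.20 for Odc1 and -0.18 for Srm, none of which passed (adjusted p = 0.24, 0.22 and 0.37). A difference that did not pass does not show equal levels, and the list median was higher with FGF alone, at 0.725. In the direct test 4 of the 14 were lower with U0126 (Ppat, Gart, Umps and Atic, adjusted p = 0.0062, 0.012, 0.013 and 0.044) and none was higher, against 6.03% of all genes lower. The E-box letters CACGTG, bound by MYC and MAX, lay in 2349 of 32851 promoters (7.15%) and in 8 of 33 promoters of the ribosome list (24.242%).

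Sterol genes rose in part, where 6.34% of all genes rose. Of 28 list members of cholesterol synthesis and SREBP control, 14 rose and none fell (median 0.35; 10 rose without the block, 9 without the variance trend). The largest values of the list were those of 3 enzymes: Lss rose by 1.25 ± 0.17, Pmvk by 1.08 ± 0.14 and Hsd17b7 by 0.90 ± 0.14. Lss, lanosterol synthase, read 404, 502 and 454 and then 921 and 1297. Sqle, squalene epoxidase, rose by 0.73 ± 0.10. Hmgcs1, at the start of the pathway, did not pass, with 8639, 10329 and 9676 on quiescent and 9842 and 7999 on treated arrays (adjusted p = 0.64). In the direct test 4 of the 28 were higher with U0126 than without it and 1 was lower. Over all genes 6.94% were higher and 6.03% lower.

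Some genes of oxygen response and oxidant defence rose, where 6.34% of all genes rose and 8.70% fell. Glucose uptake and glycolysis did not rise as a list (median 0.006), and its 1 rise was a share below that of all genes. Hk2, the inducible hexokinase, went from 706, 669 and 1051 to 3957 and 4316 (log2 2.26 ± 0.15), and it was the 1 gene of 21 tested in glucose uptake and glycolysis that rose (2 rose without replicate 1 of FGF with U0126); none fell. Vegfa, the vascular growth factor, rose from 754, 674 and 623 to 1994 and 1684 (log2 1.44 ± 0.17). Ero1a, an oxidase of the endoplasmic reticulum, rose by 1.43 ± 0.13. In the hypoxia list 5 of 17 rose and 2 fell (2 and 0 without the block); 1 fell without quiescent replicate 2 and 0 without replicate 1 of FGF with U0126. Hmox1, heme oxygenase 1, read 9609, 8655 and 6424 and then 22120.1 and 19015 (log2 1.42 ± 0.13), while FGF alone left it at 8233 and 7016. Of 16 NRF2 targets and metallothioneins 9 rose and 1 fell (median 0.43), which became 4 rises and no fall without the block; the fall was also lost without quiescent replicate 2 or either replicate of FGF with U0126.

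**Figure D3:**
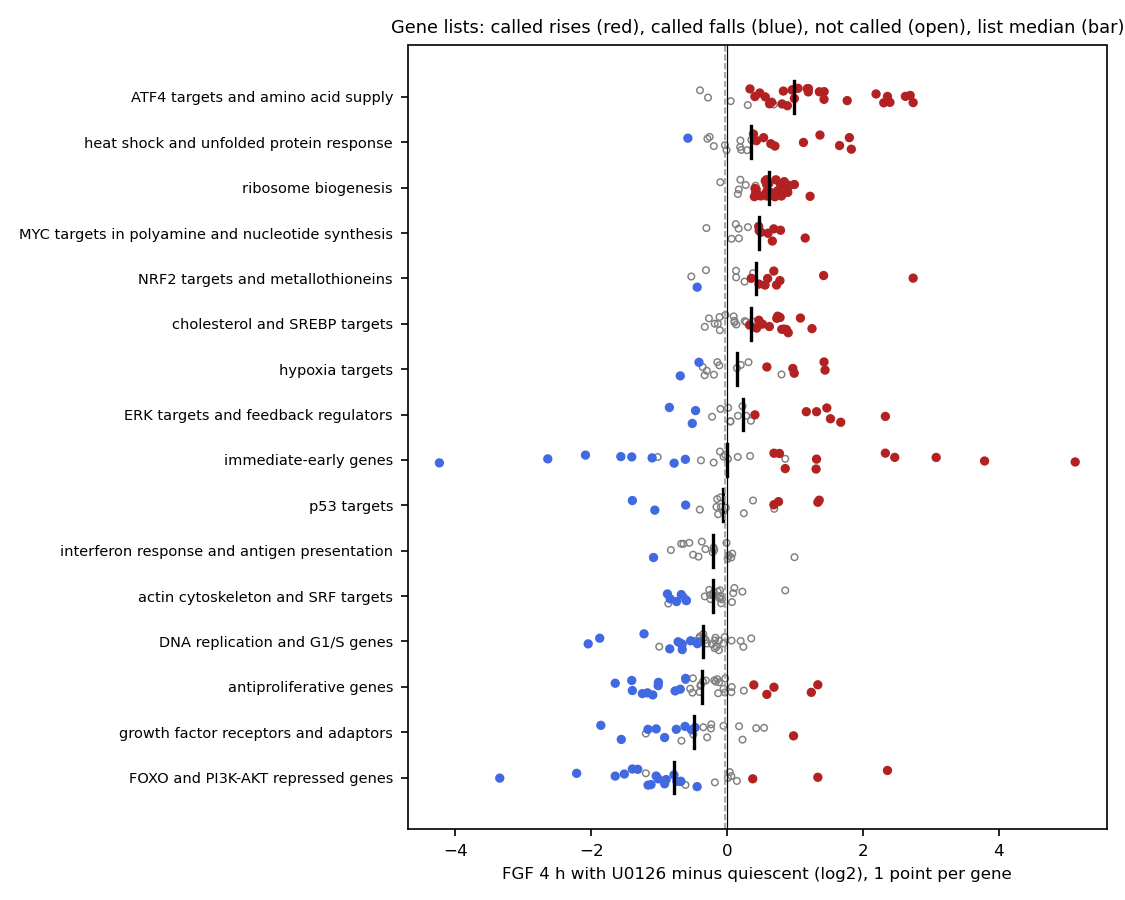
Log2 difference between FGF 4 h with U0126 and quiescent cells for the members of 16 gene lists, 1 point per gene; red and blue points passed the test as rises and falls, open points did not, black bars are list medians and the dashed line is the median of all genes (-0.03). The amino acid supply list has its median at 0.98 and the FOXO list at -0.78.

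Most genes that FOXO factors drive and AKT represses fell. Of 27 FOXO-type targets tested, 17 fell and 3 rose (Gadd45a, Trib3 and Cited2, the last without a call when the block was left out, adjusted p = 0.15), with a median of -0.78; 8.70% of all genes fell. FGF alone gave a median of -0.74 with 19 falls and no rises, where 10.6% of all genes fell. In the direct test 4 of the 27 were higher and 3 lower with U0126, a larger share than the 13.0% of all genes that differed. The other 20 did not differ beyond the limit. Txnip, which blocks glucose uptake and binds thioredoxin, read 6941, 6131 and 3612 in quiescent cells and 832 and 257 after treatment (log2 -3.35 ± 0.20, adjusted p = 7.4e-09), with 1448 and 824 for FGF alone. Fbxo32, the ubiquitin ligase atrogin-1, read 726, 1008 and 962 and then 177 and 193 (log2 -2.22 ± 0.21). Every treated array of both genes lay below every quiescent one. Ccng2, an unusual cyclin of resting cells, fell from 3023, 3131 and 2471 to 990.4 and 765, and FGF alone gave 906 and 900.4. Its difference between the treated groups was -0.05 with a 95% interval of -0.52 to 0.41.

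Pik3ip1, an inhibitor of PI3K, fell by 1.51 ± 0.18 and Sesn1, an inhibitor of mTOR complex 1, by 1.40 ± 0.23. The corresponding values with FGF alone were -1.79 and -1.31. Foxo1 fell by 1.12 ± 0.19, Klhl24 by 1.32 ± 0.16 and Hbp1, a repressor of the cell cycle, by 1.02 ± 0.12. Bcl2l11, the death protein BIM that ERK also controls, fell by 1.16 ± 0.15 with U0126 and was at 0.09 without it; the treated groups differed by -1.26 (adjusted p = 1.7e-05). Irs2 and Cdkn1b did not pass, at -1.20 and -0.61 (adjusted p = 0.19 and 0.057). The forkhead letters TGTTTAC were in 1199 of 32851 promoters (3.65%) and in 7 of 34 promoters of this list (20.588%), including Txnip (chr3:96557707-96558006, plus strand, 121 bases before the start) and 1 of 2 promoters of Sesn1 (chr10:41810324-41810623, plus strand, 22 bases after the start). They are printed because both genes fell with and without U0126, and the capitals mark the forkhead letters.
Txnip: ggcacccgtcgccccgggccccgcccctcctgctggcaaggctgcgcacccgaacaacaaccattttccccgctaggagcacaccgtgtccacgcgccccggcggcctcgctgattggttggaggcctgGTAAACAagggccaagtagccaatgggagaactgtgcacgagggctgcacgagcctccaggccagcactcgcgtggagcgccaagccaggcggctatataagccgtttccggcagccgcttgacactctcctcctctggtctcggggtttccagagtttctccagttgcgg
Sesn1: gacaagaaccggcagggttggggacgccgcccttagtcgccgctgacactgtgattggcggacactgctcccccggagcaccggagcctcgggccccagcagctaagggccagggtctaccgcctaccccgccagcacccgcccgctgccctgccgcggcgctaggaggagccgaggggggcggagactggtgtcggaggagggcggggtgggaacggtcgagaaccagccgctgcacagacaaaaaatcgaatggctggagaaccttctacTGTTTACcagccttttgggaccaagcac

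Some receptors of growth factors fell, where 8.70% of all genes fell and 6.34% rose. Of 22 receptors and adaptors tested, 9 fell, 1 rose (Fgfr2; no call without quiescent replicate 2 or replicate 2 of FGF with U0126) and 12 did not pass (median -0.48); 4 fell without the block, and 4 when quiescent replicate 2 or replicate 2 of FGF with U0126 was left out. Pdgfra, a receptor of platelet-derived growth factor, read 11720.5, 11101 and 9571 and then 2807 and 2931 (log2 -1.86 ± 0.14, adjusted p = 1.1e-07). FGF alone lowered it less, to 6979.6 and 7331, and the treated groups differed by -1.31 (adjusted p = 4.6e-06). Pdgfrb, the second receptor for this factor, went from 5388, 7479.7 and 7239 to 2844 and 1847 (log2 -1.56 ± 0.16) and was 3699.6 and 2611 with FGF alone. Igf1r fell by 1.17 ± 0.12 and Insr by 1.04 ± 0.14. The insulin receptor call was lost with the probe set of highest variance (log2 -0.25, adjusted p = 0.88). So was the rise of Fgfr2 (log2 0.23, adjusted p = 0.89). Gab1, an adaptor between receptors and PI3K, read 1049, 1848 and 1557 and then 499 and 611, with 567 and 592 for FGF alone.

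ERK targets and feedback regulators were mostly lower with U0126 than without it. Against quiescence, 6.34% of all genes rose and 8.70% fell with FGF and U0126. Of 19 tested, 7 rose and 3 fell with FGF and U0126 (median 0.23), whereas 14 rose with FGF alone (median 1.81). The falls numbered 1 without the block, 0 without quiescent replicate 2, and 1 without replicate 1 or replicate 2 of FGF with U0126. In the direct test 14 of the 19 were lower with U0126 and none was higher, against 6.03% of all genes lower. Dusp6, the phosphatase of ERK, read 907, 1263 and 1559.5 in quiescent cells, 1319.6 and 1292 with FGF and U0126 and 9314 and 8316 with FGF alone. Its change from quiescence was 0.01 ± 0.14 (95% interval -0.27 to 0.30). Ereg, a ligand of the epidermal growth factor receptor, likewise stood at 0.05 ± 0.15 with U0126 and 3.48 without it. Hmga2, a chromatin protein, read 1019 and 589.6 with U0126 against 9064 and 10746 without (log2 -3.65, adjusted p = 1.8e-08). Neither gene differed from quiescence beyond the limit with U0126 (adjusted p = 0.88 and 0.65).

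Other ERK targets rose in the presence of U0126, though less than without it. Fosl1, the AP-1 protein FRA-1, went from 276, 392 and 311 to 1619 and 1706 (log2 2.33 ± 0.19) and reached 4251 and 3358 with FGF alone. Hbegf, another ligand of the epidermal growth factor receptor, rose by 1.52 ± 0.17 against 2.88 without U0126. Plaur, the urokinase receptor, rose by 1.17 ± 0.13 against 2.60, and Ier3 by 1.32 ± 0.12 against 1.90. Dusp4, a nuclear phosphatase of MAP kinases, read 85.5, 63 and 98.4 and then 229 and 395, against 946 and 1275 with FGF alone. The differences between the treated groups were -1.18, -1.36, -1.44, -0.59 and -1.82 on the log2 scale in that order, and each passed. Etv5, an ETS factor, fell by 0.85 ± 0.19 (adjusted p = 0.0054; 0.1 without quiescent replicate 2 and 0.082 without replicate 1 of FGF with U0126) and rose by 1.80 without U0126.

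**Figure D4:**
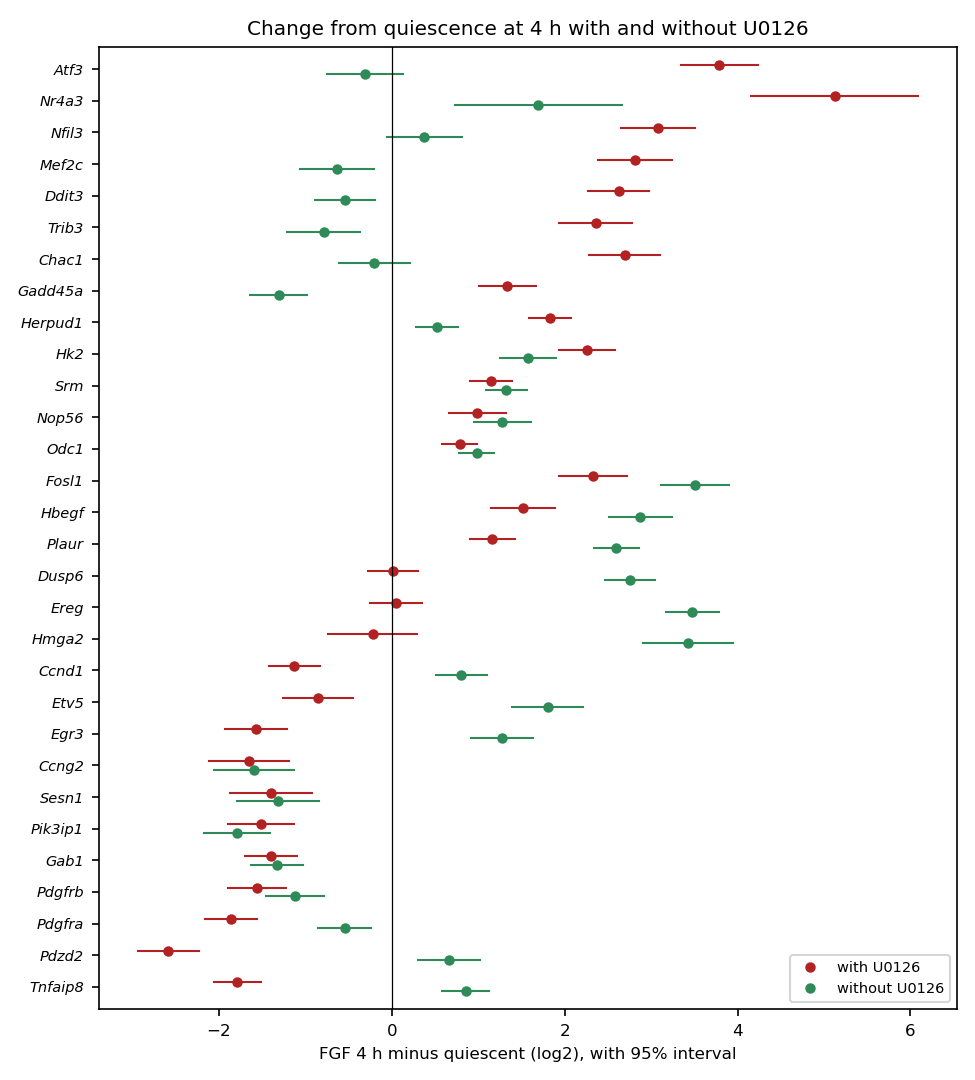
Log2 change from quiescence at 4 h, with 95% intervals, for 30 genes with U0126 (red) and without it (green); both share the quiescent arrays. Atf3, Mef2c, Ddit3 and Trib3 are high only with U0126, Dusp6, Ereg and Hmga2 only without it, and Srm, Ccng2, Sesn1 and Gab1 lie at like values in both.

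The direct test of FGF with U0126 against FGF alone called 1946 genes (13.0% of those tested), with 6.94% of all genes higher and 6.03% lower. FGF alone against quiescence called 2658 (17.7%). The calls from quiescence and the direct test use the same 2 arrays of FGF with U0126. Scatter of those arrays moves both differences in the same direction, so the splits below are partly built in by the selection. Of the 950 genes that rose, 350 were higher with U0126 than with FGF alone, 56 were lower, and 405 had a 95% interval of that difference within 1.5-fold either way. Of the 1304 that fell, 391 were lower with U0126, 41 were higher and 507 lay within 1.5-fold; over all 14996 genes 4844 lay within it. Among the risen genes of this last kind were Timm10 and Timm8a1 of mitochondrial protein import. Timm10 read 1660.2, 1570.3 and 1476 and then 3358 and 3587, with 3374 and 3482 for FGF alone. The others named by the rule were the ribosome factors Bysl and Rrp12 (log2 1.17 and 1.22), the synthetase cofactor Eef1e1 (1.18), the homeobox repressor Tgif1 (1.20), the respiratory assembly factor Ndufaf4 (1.28), the lipoprotein receptor Lrp8 (1.30; 0.44 with the probe set of highest variance, adjusted p = 0.2) and the sialyltransferase St6galnac4. The matching falls were led by Dtx4, a ubiquitin ligase of the Notch field, at -1.69, with Ccng2, Chst12 (-1.64), Akap12, a scaffold of protein kinase A (-1.62), Serpinb1a (-1.53) and Tent5a (-1.36). Dtx4 read 4100.4, 3584 and 4543, then 1064 and 1539.9, and 1410.4 and 1138 with FGF alone. Cyp26b1, which degrades retinoic acid, read 1707, 1398 and 1740.3, then 264 and 423, and 252 and 337 with FGF alone.

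At the opposite end were genes that moved in opposite directions in the presence and absence of U0126. Pdzd2 read 1058, 1039 and 1236 in quiescent cells, 174 and 184 with U0126 and 2001 and 1634 without it (treated groups apart by -3.25, adjusted p = 6.9e-10). Tnfaip8, a regulator of cell death, read 1125, 1432 and 1341, 389 and 349.9 and 2372 and 2376. Gadd45a, a stress gene of growth arrest, rose by 1.33 ± 0.16 with U0126, from 2419, 1901 and 1941 to 5762 and 4630.2, and fell by 1.31 without it, to 867 and 769. Its paralog Gadd45b rose by 1.24 ± 0.13 and was at -0.50 without U0126.

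Cell cycle genes did not rise as a group. Ccnd1, cyclin D1, which links growth factor signals to the cycle, read 1939.7, 2111 and 2502, then 965 and 1088 (log2 -1.12 ± 0.14, adjusted p = 2.2e-05), and 4382 and 3544 with FGF alone. The treated groups did not overlap and differed by -1.93 (adjusted p = 4.6e-08). Of 33 DNA replication and G1/S genes tested, none rose and 11 fell (median -0.35; with FGF alone 0.14). This count was 5 without the block and 5 without quiescent replicate 2, 6 without replicate 2 of FGF with U0126, and 7 without quiescent replicate 1b. E2f7, an atypical repressor of E2F genes, fell from 429, 495 and 559 to 143 and 115 (log2 -1.88 ± 0.21). Slbp, the histone mRNA binding protein, fell by 0.72 ± 0.10. Of 29 genes of G2 and mitosis, 4 fell (Cdc20, Kif20a, Mki67 and Nusap1) and none rose, where 8.70% of all genes fell. None of the 29 fell without the block (adjusted p = 0.12 to 0.35 for these 4), without quiescent replicate 2 or without replicate 2 of FGF with U0126, 2 fell without quiescent replicate 1b and 8 without 1a.

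Antiproliferative genes gave a mixed picture. Against quiescence, 8.70% of all genes fell and 6.34% rose with FGF and U0126. Of 36 tested, 11 fell and 5 rose with FGF and U0126 (median -0.37; 2 rose without the block and 3 without replicate 1 of FGF with U0126), against 28 falls and no rise with FGF alone (median -0.72). In the direct test 14 were higher with U0126 and 2 lower, where 6.94% of all genes were higher and 6.03% lower. Rbl2, the pocket protein p130 of resting cells, fell by 1.25 ± 0.16, from 769, 839.8 and 1122 to 409.6 and 375. Jund, an AP-1 protein that restrains growth, read 11190.4, 8261 and 5348 in quiescent cells and 9395 and 5968 with U0126, but 2516 and 1830.2 with FGF alone. Tob1, an antiproliferative adaptor, was at 0.07 ± 0.13 with U0126 and -0.77 without it. Cdkn1a, the cyclin-dependent kinase inhibitor p21, was at 0.25 ± 0.12 with U0126 (adjusted p = 0.19) and -0.93 without it. For these 3 genes the treated groups differed by 1.80, 0.84 and 1.17, each past the limit.

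Secreted and cytoskeletal genes gave smaller counts. Ptgs2, cyclooxygenase 2, rose from 1681, 2466 and 2207 to 11945 and 9629.7 (log2 2.33 ± 0.19), with 8382 and 6645 for FGF alone. Il6 was low in quiescent cells (9.6, 12 and 41.2) and read 141 and 246 with U0126 and 29 and 6.7 without it. Both belong to a list of NF-kappaB, chemokine and cytokine genes that moved both ways. Of its 24 members tested, 3 rose (Il6, Ptgs2 and Cxcl1), 3 fell and 18 did not pass, where 6.34% of all genes rose. The falls were those of Nfkbia (-0.86), Ccl7 (-0.78, adjusted p = 0.18 without the block) and Vcam1 (-0.72). Angptl4, an inhibitor of lipoprotein lipase, fell from 5855, 3843 and 5452 to 1123 and 1079 (log2 -2.19 ± 0.17), and Synpo, an actin-binding protein, from 1051, 767 and 1133 to 106 and 196. Among 26 genes of the actin cytoskeleton and SRF, 6 fell and none rose (3 fell without the block). Of 13 JAK-STAT targets 6 fell and none rose; the falls numbered 1 without the block, without quiescent replicate 2 or without replicate 2 of FGF with U0126, and 3 without quiescent replicate 1b or replicate 1 of FGF with U0126. In the interferon list 1 of 19 fell (Gbp2) and none rose, a share below the 8.70% of all genes that fell.

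Other motifs were counted in the same way, on both strands and with overlaps between motifs allowed. The AP-1 letters TGANTCA were in 7.808% of all promoters and in 2 of 13 promoters of the ERK target list (15.385%, Plaur and Lif). The cyclic AMP element TGACGTCA was in 1.79% and in 2 of 30 promoters of immediate-early genes (6.667%), and the sterol element TCACNCCAC in 1.242% and in 1 of 26 promoters of the cholesterol list (3.846%). The interferon-stimulated response element was in 0.685% and in 8 of 24 promoters of the interferon list (33.333%), although 1 member of that list fell and none rose. The D-box TTANGTAA was in 2.323% and in 1 of 21 promoters of clock genes (4.762%). The xenobiotic element TTGCGTG (1.16% of all promoters) and the serum response core (1 form of the CArG box, 0.064%) had no match among the 8 promoters of the aryl hydrocarbon list and the 28 of the actin list.

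The other time points place the 4 h values in sequence, with 1 array per state at 1 h. At 1 h Nr4a1 read 17925 with FGF and 4460.2 with U0126 added. By 4 h the order had turned, to 935 and 1088 with FGF alone and 3638 and 4629.7 with U0126, and at 12 h with U0126 it was 1012 and 1841. Atf3 at 1 h read 619 with FGF and 789 with U0126, so that both states were above the quiescent arrays before they parted. Ddit3 at 1 h already differed, at 2367 with FGF and 6429.8 with U0126. Mef2c and Slc7a11 were still near quiescence at 1 h with U0126, at 288 and 154. With U0126 at 12 h they read 1464 and 1586 and 899 and 925, and neither differed from 4 h beyond the limit (adjusted p = 0.33 and 0.81).

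Between 4 and 12 h with U0126 present, 738 genes (4.92% of those tested) differed, 2.48% of all genes being lower and 2.44% higher at 12 h. Herpud1 came down from 18139.5 and 16121 at 4 h to 4484 and 4096 at 12 h (log2 -1.99, adjusted p = 3e-08), against 4476, 5757 and 4553 on the quiescent arrays. Egr1 read 1426 at 1 h and 43.4 and 60.7 at 12 h with U0126, against 26182 at 1 h with FGF alone. Pdgfra was at 10415 at 1 h with U0126 and had reached its low level by 4 h, with 2403 and 3334 at 12 h (log2 -0.02 from 4 h, adjusted p = 0.97).

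**Figure D5:**
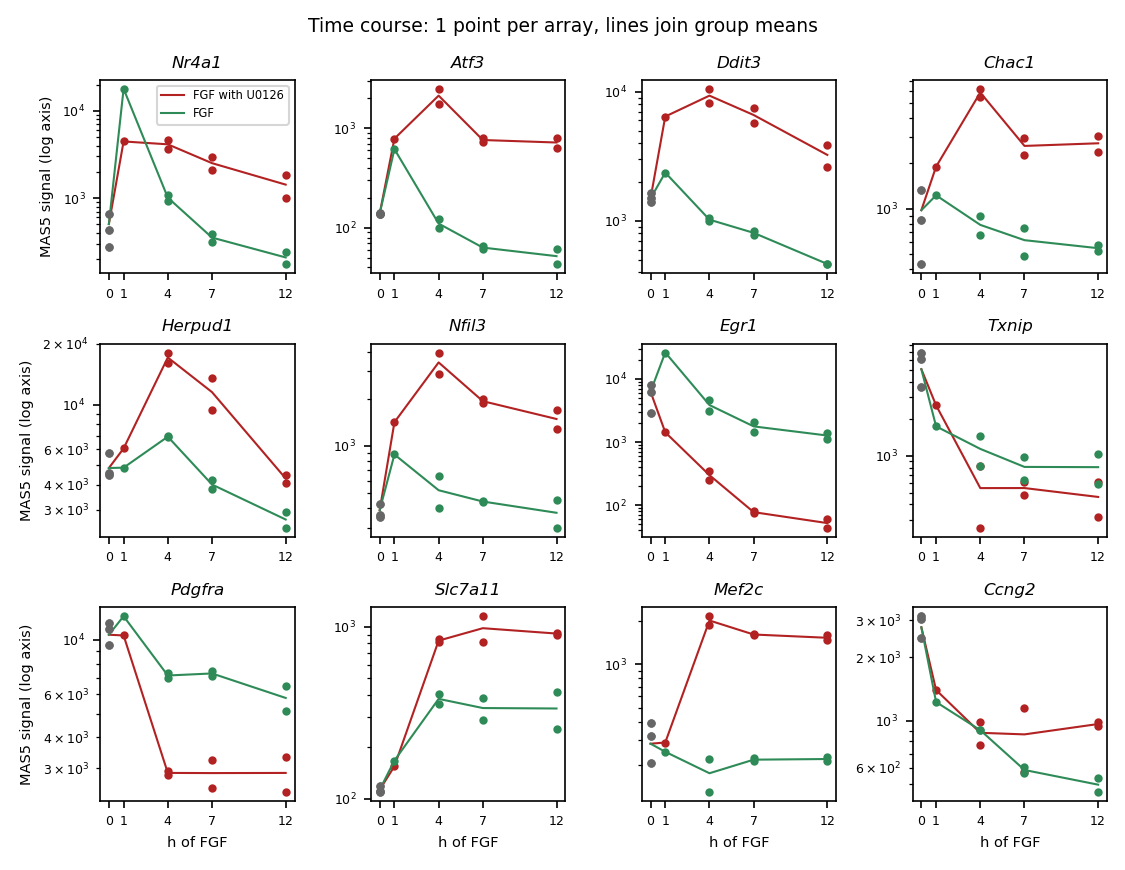
MAS5 signal (log axis) against hours of FGF for 12 genes, with U0126 from before FGF (red) and without it (green); grey points at 0 h are the 3 quiescent arrays, coloured points are single arrays and lines join group means. Nr4a1 peaks at 1 h with FGF alone, and Mef2c and Slc7a11 hold the level of 4 h through 12 h with U0126.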

How the data were processed

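RNA of NIH3T3 cells was measured on 19 Affymetrix mouse whole-genome arrays, 1 per sample. The deposited values are linear MAS5 signal intensity, per the submitters' processing notes, and on each array their mean after trimming 2% at either end is 500. No MAS5 version is given in the sources used here. The array's annotation table gave 34945 of 45101 probe sets a single gene, 932 several and 9160 none, beside 64 controls; 204 genes' probe sets were not in the RefSeq table and kept their symbol. A probe set was kept when its signal exceeded its array's 40th percentile on 2 or more arrays (27915), and the one of highest mean stood for each of 14996 genes; 7114 genes had more than 1, and in 12 of them probe sets were called both ways. MAS5 signals of different probe sets are not comparable.

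Tests used log2(signal + 13.6), the offset being the 20th percentile of all values. Quiescent replicates 1a and 1b were averaged. All groups (18 columns in 11 groups) were fitted in limma 3.58.1 under R 4.3.3, using eBayes with a trended variance (6 residual and 11.6 prior degrees of freedom), with the experiment number as a block because the comparison is defined as paired by experiment. The deviations of same-numbered samples correlated in all 21 pairs of groups (0.124 to 0.304, median 0.21). Tests were two-sided and adjusted by Benjamini-Hochberg over all genes of a comparison. The workflow was tested on simulated data. Precision is limited by the number of arrays. The comparisons with and without U0126 share the quiescent arrays, so their values are set side by side only and the difference was tested between the treated groups.

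Genes were named by a rule: the 15 largest rises and 15 largest falls, up to 5 called members per list, the 8 largest differences each way from FGF alone, the 10 largest rises and falls within 1.5-fold of FGF alone, and fixed genes. The members and lists were chosen with earlier results of these data known, and further list members were named after their values were seen. Promoters are RefSeq's, from 250 bases before to 50 after the start. Alternatives were quantile and 75th percentile scaling, other offsets, filters and probe sets, no variance trend, no block, 3 separate quiescent arrays, only the compared groups, and leaving out each array. Figures used matplotlib 3.10.9.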

Additional observations from a re-analysis of the deposited data

Results flagged for a closer look

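Of the 15 largest rises and 15 largest falls at 4 h, 15 genes differed between 12 h and 4 h with U0126 (limma, adjusted p between 1.5e-05 and 0.021). Over all genes 4.92% differed. These genes were picked by their 4 h values, and the same 4 h arrays enter this test. Part of any return toward quiescence is therefore built in by that choice. Values are log2 signal at 12 h minus 4 h. Among the genes that had risen, the difference was -2.03 for Nr4a3, -1.58 for Nr4a1, -0.87 for Nr4a2, -1.54 for Atf3, -1.53 for Ddit3, -1.12 for Chac1, -1.54 for Gpat3, -1.19 for Nfil3 and -0.60 for Pvr. Each of these 9 was nearer to quiescence at 12 h, and Nr4a3 still stood 3.10 above it. Among the genes that had fallen, Egr1 and Egr2 went lower still, by -2.25 and -1.30, to -6.49 and -3.39 relative to quiescence. Fbxo32, Angptl4, 9930012K11Rik and Pdzd2 came back in part, with 0.88, 0.81, 0.96 and 1.06.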

How the results depend on the processing

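Apart from 4 genes with the probe set of highest variance, no called gene became a call of the opposite sign under any alternative that kept 1 value per gene; counting every probe set was not compared gene by gene. Without the replicate block, 1108 genes were called for FGF 4 h with U0126 against quiescence, 891 for the difference from FGF alone, 1336 for FGF alone against quiescence and 133 for 12 h against 4 h with U0126. Without the variance trend the counts were 1318, 1189, 1682 and 57 in the same order. The probe set of highest variance gave 1565 calls for FGF 4 h with U0126 against quiescence and kept 1306 of the 2254 in the same direction. It gave 1252 for the difference from FGF alone, 1763 for FGF alone and 480 for 12 h against 4 h. Counting every probe set gave 3697, 2985 and 4047 for the first 3 comparisons. Leaving out single arrays gave 1153 to 2331, 1047 to 1195, 1265 to 2672 and 249 to 379 calls. The share of falls among calls moved with 75th percentile scaling, to 1128 rises and 1070 falls.

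With the probe set of highest variance, 8 named or candidate genes that were called in the main setting changed sign. They were Foxo3 0.13, Il6st 0.36, Klf9 -0.084, Nfe2l2 -1.01, Plat 0.49, Pmepa1 -0.14, Spred1 0.75 and Spred2 0.18, none of them a call in that setting. A further 2 genes, without a call in either setting, changed sign too. The cause was not tested. Another 35 of the 243 genes examined singly kept their sign but lost their call with the probe set of highest variance. Of the genes examined singly, 60 lost their call without the block and 50 without the variance trend. List counts that moved by over 1.5 times without the block or a single array are given with each list the text counts. The NF-kappaB, chemokine and cytokine list is the exception. With 2 treated arrays and no presence calls used, changes of low-signal genes such as Il6 and Npas4 are the least certain in size.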

Other observations

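Other regulators outside the groups above also changed, where 6.34% of all genes rose and 8.70% fell with FGF and U0126. Of 19 p53 targets tested, 4 rose and 3 fell with FGF and U0126 (1 fell without replicate 2 of FGF with U0126), against 1 rise and 10 falls with FGF alone; 9 were higher with U0126 and 1 lower. Over all genes 6.94% were higher and 6.03% lower with U0126 than with FGF alone. Plk2, a polo-like kinase, read 5888, 9858 and 10216 in quiescent cells, 15252 and 14570.2 with U0126 and 5155 and 6027 with FGF alone. Fas, the death receptor, read 609.9, 694 and 789, 386 and 291 and 146 and 153, a fall whose call was lost without replicate 2 of FGF with U0126 (adjusted p = 0.11) or quiescent replicate 2 (0.059). Adamts1 and Adamts5, matrix proteases, fell by 0.86 and 0.81 with U0126, and by 2.45 and 2.08 without it. Edn1, endothelin 1, read 108, 207 and 258, then 96.8 and 96.4 with U0126, which did not pass (adjusted p = 0.12), and 10.8 and 4.7 with FGF alone. Of 12 KLF factors 4 fell and 1 rose, Klf9, whose call was lost without the block (adjusted p = 0.19), quiescent replicate 1b (0.083) or 2 (0.34), or replicate 1 of FGF with U0126 (0.4). Klf11 read 791, 652 and 697, 257 and 365 and 164 and 158.

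Clock genes gave 2 rises and 3 falls among 18 tested, against 2 and 7 with FGF alone; 6.34% of all genes rose and 8.70% fell. Without the block 1 rose and 1 fell; 1 fell without either replicate of FGF with U0126, and 5 without quiescent replicate 2. Dbp, an output factor of the clock, read 1812, 2486 and 1430.3, 1034 and 1046 and 261 and 196; with U0126 it did not pass (adjusted p = 0.077), and the treated groups differed by 2.13 (adjusted p = 2.4e-05). Among 23 TGF-beta and BMP targets 6 fell (3 without the block or without quiescent replicate 2) and 1 rose, Pmepa1, whose call was lost without quiescent replicate 2 (adjusted p = 0.18) or replicate 1 (0.1) or 2 (0.053) of FGF with U0126. Smad6, an inhibitor of BMP signals, fell by 1.73 ± 0.29, and Tgfbr2, the type II receptor, by 1.01 ± 0.11 (log2 -0.40 with the probe set of highest variance, adjusted p = 0.42).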
